A study of Mus musculus with 2 samples.

Results

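The genes described here encode neurotrophic factors and the receptors that bind them, in mouse hind limb muscle 7 days after crush of its nerve. They were taken by symbol from the gene table of the deposited matrices, and there were 9 of them among 32287 features: the ligands *Gdnf*, *Artn*, *Bdnf* and *Ntf3* and the receptors *Gfra1*, *Gfra3*, *Ret*, *Ngfr* and *Ntrk2*. All 9 had at least 1 unique molecular identifier (UMI, 1 captured RNA molecule) in each of the 2 libraries.

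GDNF and artemin, the product of *Artn*, belong to the GDNF ligand family. Each binds a membrane-anchored coreceptor of the GFRα family, GDNF mainly through GFRα1 and artemin mainly through GFRα3, and the pair then engages the receptor tyrosine kinase RET. BDNF and neurotrophin-3, the product of *Ntf3*, bind the Trk kinases TrkB (*Ntrk2*) and TrkC, and all neurotrophins also bind the low-affinity receptor encoded by *Ngfr*. Denervated Schwann cells are known for making trophic factors that regrowing motor and sensory axons use, and the neurons that carry RET and Trk receptors on those axons have their cell bodies outside the muscle.

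The study asked how neutralizing secreted phosphoprotein 1 (SPP1, osteopontin) alters the Schwann cell response to denervation. scRNA-Seq was done on 1 library from muscle given goat anti-mouse IgG (IgG library) and 1 from muscle given an SPP1 neutralizing antibody (SPP1-nAb library). Both groups had bilateral peroneal nerve crush at 10 to 16 weeks of age and received 2 µg of antibody in 10 µL into the tibialis anterior (TA) muscle every 2 days, and the cells came from pooled male mice. The labels give the strain as C57BL/6J, whereas the methods place antibody experiments in *S100GFP*-tg mice, in which an *S100B* promoter drives GFP in Schwann cells. The sample titles name GFP-positive cells, the protocol sorted live cells both with and without GFP, and it lists TA and gastrocnemius muscle where the study's text names TA alone. With 1 library per treatment there was no replicate, so no difference between the libraries was tested. All intervals below are exact 95% intervals that cover counting error only, not the spread between animals. Intervals of levels and ratios treat UMIs as independent, so they also leave out the spread between cells.

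The IgG library held 23779 barcodes and 97607674 UMIs, and the SPP1-nAb library 25069 barcodes and 127719916 UMIs. After filters 21047 and 22282 cells were kept, at medians of 3615 and 4540 UMIs, and 126 barcodes of kept cells occurred in both libraries. Cells were assigned to a class by marker genes detected in the cell, and 10 classes had at least 50 cells in each library. Among them were 454 and 464 Schwann-like cells, 2494 and 1067 mesenchymal-like, 693 and 417 tenocyte-like, 1486 and 979 satellite cell or myoblast-like, 383 and 312 endothelial-like, 134 and 91 mural-like and 11299 and 14436 mononuclear phagocyte-like cells (IgG and SPP1-nAb). All 10 Schwann markers were at least 2-fold higher in Schwann-like cells than in the other cells of the same library. The same markers assigned the cells, so this is no separate check of the class. A *Gfp* UMI was found in 55.3% and 52.2% of Schwann-like and in 44.0% and 56.9% of mononuclear phagocyte-like cells. *Gfp* thus did not mark Schwann cells alone. Levels are given in CPM: how many UMIs a gene had for every 1000000 UMIs in a class of 1 library.

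Schwann-like cells had the highest level of *Gdnf*, *Artn*, *Gfra1* and *Ngfr* in both libraries, and of *Gfra3* at fewer UMIs. The 250 bases before the transcription start of the first 4 are shown because these genes shared a leading class. The sequences are those of the RefSeq table for GRCm38.p6, read along the transcribed strand, with matches to the E-box CANNTG in capitals.
Gdnf, chr15:7809798-7810047, + strand, first of 2 starts: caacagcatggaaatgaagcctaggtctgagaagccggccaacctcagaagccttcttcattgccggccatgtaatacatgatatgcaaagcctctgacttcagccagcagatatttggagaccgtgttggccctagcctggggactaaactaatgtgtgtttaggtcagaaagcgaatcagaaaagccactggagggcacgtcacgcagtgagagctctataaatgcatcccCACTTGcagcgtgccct
Artn, chr4:117929764-117930013, - strand: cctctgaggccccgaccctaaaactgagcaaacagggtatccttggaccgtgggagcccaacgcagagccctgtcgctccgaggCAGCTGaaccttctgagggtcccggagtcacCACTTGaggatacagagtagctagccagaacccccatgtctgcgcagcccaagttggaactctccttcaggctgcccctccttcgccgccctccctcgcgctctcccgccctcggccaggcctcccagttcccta
Gfra1, chr19:58455399-58455648, - strand: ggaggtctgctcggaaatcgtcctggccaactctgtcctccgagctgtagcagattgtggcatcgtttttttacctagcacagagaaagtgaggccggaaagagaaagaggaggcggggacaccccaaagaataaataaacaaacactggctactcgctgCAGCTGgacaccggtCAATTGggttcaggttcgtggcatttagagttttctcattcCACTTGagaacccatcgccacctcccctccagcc
Ngfr, chr11:95587699-95587948, - strand: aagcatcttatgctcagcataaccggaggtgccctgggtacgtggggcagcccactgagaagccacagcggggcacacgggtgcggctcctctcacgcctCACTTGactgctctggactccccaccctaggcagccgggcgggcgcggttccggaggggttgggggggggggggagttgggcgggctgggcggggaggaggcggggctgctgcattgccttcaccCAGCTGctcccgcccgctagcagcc

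The E-box CANNTG is the letter pattern read by basic helix-loop-helix factors, and because it is a palindrome both strands are searched at once. It occurred 1 time in the *Gdnf* window, 2 times each in the *Artn* and *Ngfr* windows and 3 times in the *Gfra1* window, and 66.2% of 32851 windows of that length held at least 1. CACTTG was the one form present in all 4, at -17 in *Gdnf*, -135 in *Artn*, -34 in *Gfra1* and -150 in *Ngfr*, counted from the start site. The *Gdnf* window held only this 1 match, so no other form could be shared by all 4. CACTTG was not searched on its own, so its share of all windows was not counted. An E-box was also found before 6 of 7 starts of *Bdnf*, 2 of 2 of *Ntf3* and 1 of 1 of *Ntrk2*, genes led by other classes. The SOX core ACAANG, searched on both strands and present in 36.3% of all windows, and the AP-1 pattern TGANTCA, present in 6.7%, had no match in these 4. GC content was 50.8% for *Gdnf*, 52.4% for *Gfra1*, 63.6% for *Artn* and 70.4% for *Ngfr*, with 7, 10, 13 and 16 CpG dinucleotides. A match of letters is a description of the window and not a bound site.

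Ligands are described first. *Gdnf* (ENSMUSG00000022144, GRCm39 chromosome 15, 7840327 to 7867060, + strand) encodes the motor neuron survival factor that names its family. Schwann-like cells held 183 *Gdnf* UMIs at 140.3 CPM (121 to 162) in the IgG library and 221 UMIs at 141 CPM (123 to 161) under SPP1-nAb. They were 73.2% and 67.8% of all *Gdnf* UMIs in kept cells, although Schwann-like cells were 2.16% and 2.08% of those cells. The class with the next highest level, satellite cell or myoblast-like cells, reached 5.10 CPM (3.19 to 7.72) and 7.36 CPM (5.00 to 10.5), so the intervals of the leading and the following class were far apart in each library. Mononuclear phagocyte-like cells, taken here as the class that should lack these genes, gave 0.104 and 0.131 CPM. Free RNA differed by class: the median level of other lineages' marker lists, relative to the whole library, was 5.03% and 5.09% in mononuclear phagocyte-like cells (IgG and SPP1-nAb) and 5.71% and 6.43% in Schwann-like cells. It was 22.3% in satellite cell or myoblast-like cells of the SPP1-nAb library and 19.4% and 33.7% in mesenchymal-like cells. In tenocyte-like cells it was 17.6% and 31.7%, and in mural-like cells 21.0% and 15.5%. By this estimate the phagocyte values understate the background of those 4 classes. The estimate can be too high: for *Ntrk2* in satellite cell or myoblast-like cells it gave 3.18 and 2.21 CPM, where 0.695 and 0.713 CPM were measured. The single lists behind these medians were far apart, from 4.09% to 64.3% in mesenchymal-like cells of the IgG library.

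At the level of single cells, 121 of 454 Schwann-like cells (26.7%) and 150 of 464 (32.3%) had a *Gdnf* UMI. Thinned to 2000 UMIs per cell, which left out 117 and 64 shallower cells, the shares were 23.4% (19.0 to 28.3) and 22.5% (18.5 to 26.9). The thinned share in mononuclear phagocyte-like cells was 0.0190% and 0.0290%, with unthinned shares of 0.0443% and 0.0693% and median depths of 3980 and 5029 UMIs against 2713.5 and 3183 in Schwann-like cells. The higher unthinned share of the SPP1-nAb library was thus not seen at equal depth.

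**Figure D1:**
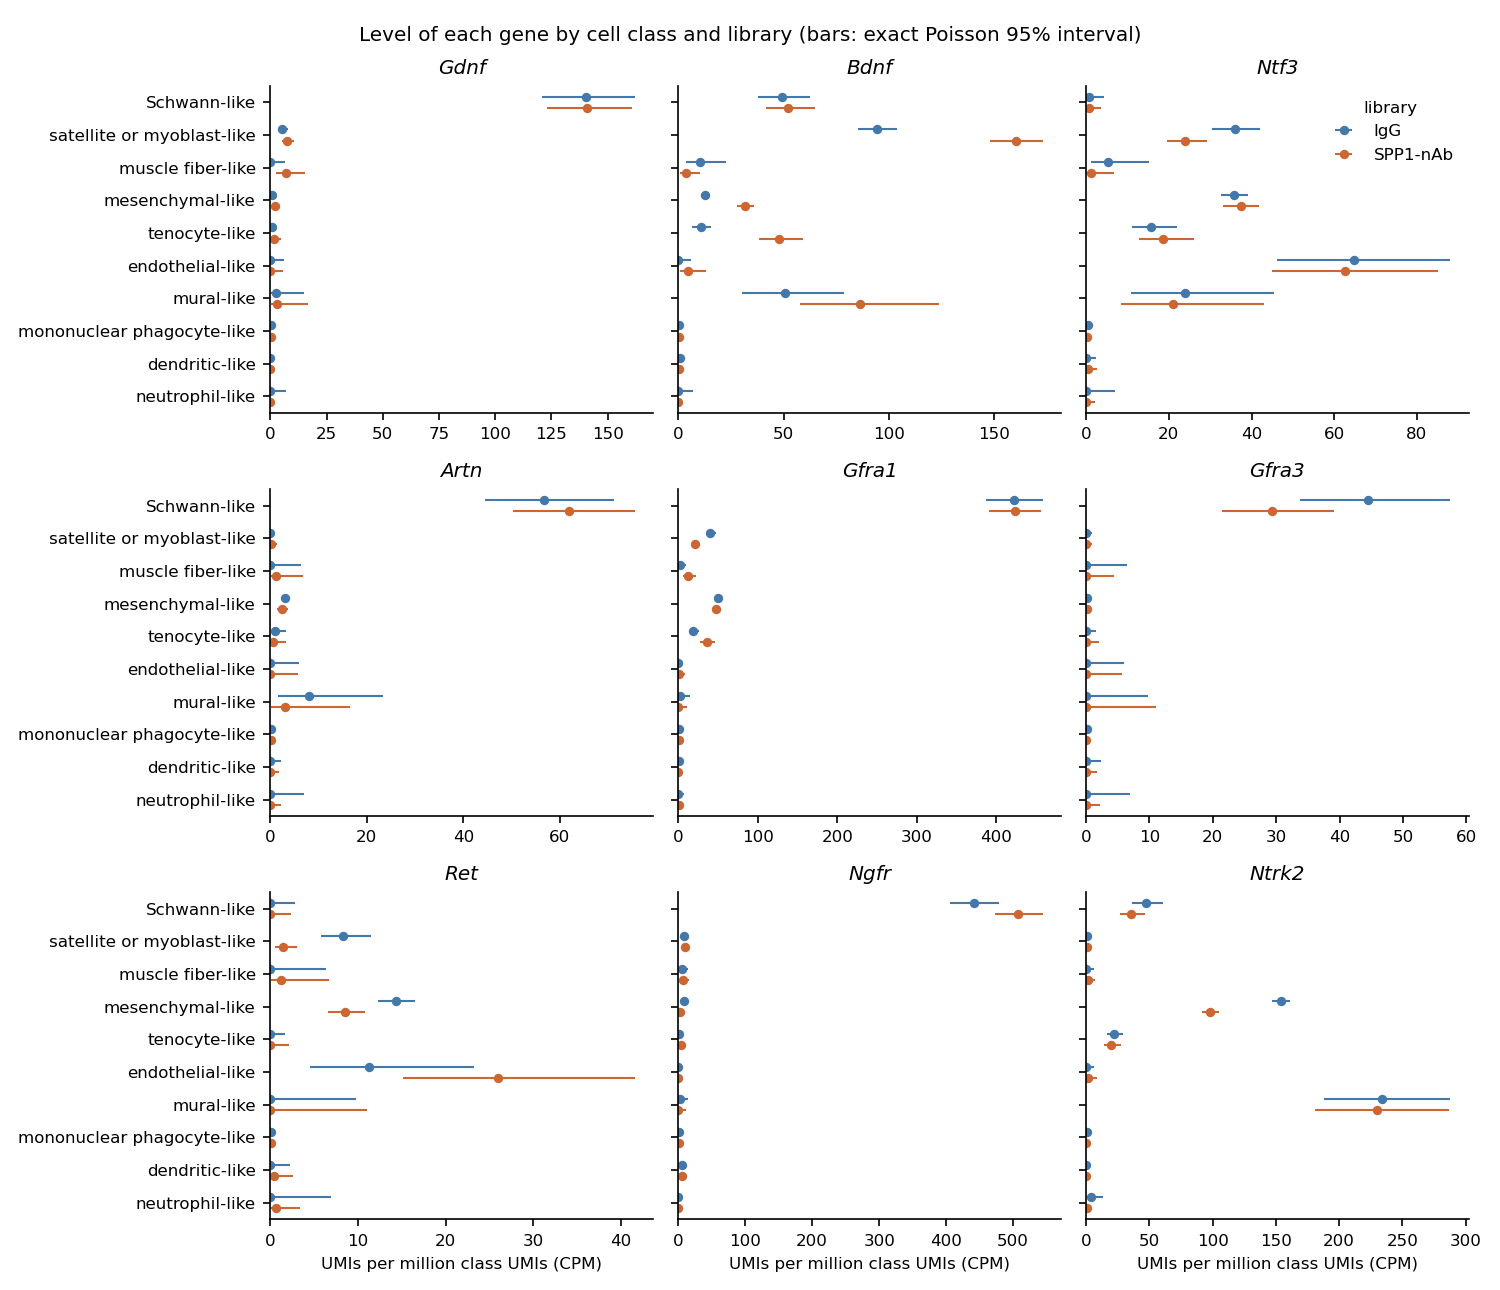
Levels of the 9 genes in CPM (linear axes from 0, with a range of its own in each panel) in each of 10 cell classes, with 1 point per library (IgG and SPP1-nAb) and bars for exact 95% Poisson intervals. *Gdnf*, *Artn*, *Gfra1*, *Gfra3* and *Ngfr* peak in Schwann-like cells, *Bdnf* in satellite cell or myoblast-like cells at 94.3 and 160.3 CPM, *Ntf3* in endothelial-like cells and *Ntrk2* in mural-like cells.

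*Artn* (ENSMUSG00000028539, chromosome 4, 117783113 to 117786993, - strand), whose product acts on sensory and sympathetic neurons, followed the same order at fewer UMIs. Schwann-like cells had 74 UMIs at 56.7 CPM (44.5 to 71.2) in the IgG library and 97 UMIs at 61.9 CPM (50.2 to 75.5) under SPP1-nAb, and held 56.1% and 75.2% of the gene's UMIs. The thinned share of Schwann-like cells with an *Artn* UMI was 11.6% and 10.5%, from 13.7% and 16.6% unthinned. Mesenchymal-like cells gave the second largest number of molecules, 39 and 19 UMIs, at the much lower levels of 3.01 and 2.41 CPM. Satellite cell or myoblast-like cells, which expressed *Bdnf*, had 0 and 1 *Artn* UMIs.

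*Bdnf* (ENSMUSG00000048482, chromosome 2, 109505045 to 109557475, + strand) differed from both, because its largest source was muscle progenitors and not glia. Satellite cell or myoblast-like cells held 407 UMIs at 94.3 CPM (85.3 to 104) in the IgG library and 675 UMIs at 160.3 CPM (148 to 173) under SPP1-nAb. They were 51.4% and 49.2% of all *Bdnf* UMIs. The thinned share of these cells with a *Bdnf* UMI was 11.4% (9.42 to 13.5) and 20.2% (17.4 to 23.1), with 517 and 186 cells left out, against 0.0380% and 0.0362% of mononuclear phagocyte-like cells; the unthinned shares were 12.2% and 23.5%, against 0.0620% and 0.118%.

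Below that class, *Bdnf* in mural-like cells was 50.5 CPM (30.4 to 78.9) and 86.5 CPM (57.9 to 124), and in Schwann-like cells 49.1 CPM (37.8 to 62.6) and 52.3 CPM (41.6 to 64.9). The intervals of these 2 classes overlapped in each library, and their order was not tested. Only 8 and 11 mural-like cells had a *Bdnf* UMI. Mesenchymal-like cells had 12.7 and 31.9 CPM, and tenocyte-like cells 10.6 and 48.0 CPM, with the higher value in the SPP1-nAb library in both. In tenocyte-like cells the 10 cells richest in *Bdnf* carried 62.5% and 60.0% of its 24 and 85 UMIs, so that level rested on few cells.

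*Ntf3* (ENSMUSG00000049107, chromosome 6, 126078375 to 126143873, - strand) was spread over non-glial classes. Endothelial-like cells had the highest level, 64.7 CPM (46.2 to 88.1) from 40 UMIs in the IgG library and 62.7 CPM (45.0 to 85.1) from 41 UMIs in the SPP1-nAb library. Mesenchymal-like cells were at 35.7 CPM (32.5 to 39.1) and 37.4 CPM (33.2 to 41.9), and since they were many they held 57.4% and 53.5% of the molecules. The next class, satellite cell or myoblast-like cells, was at 35.9 CPM (30.5 to 42.0) and 24.0 CPM (19.5 to 29.2), overlapping with mesenchymal-like cells in the IgG library and below them in the SPP1-nAb library. Schwann-like cells had 1 *Ntf3* UMI in each library, which makes *Ntf3* the one ligand of the 4 that was close to 0 in glia. The thinned share in endothelial-like cells, 16.0% and 9.09%, came from 75 and 99 cells after 308 and 213 shallow cells were left out, and the unthinned shares were 9.14% and 10.6%. In mononuclear phagocyte-like cells the thinned share was 0.0570% and 0.0652%.

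The receptors of the GDNF family come next. *Gfra1* (ENSMUSG00000025089, chromosome 19, 58223212 to 58444346, - strand) encodes the GDNF coreceptor. In Schwann-like cells it reached 422 CPM (387 to 458) from 550 UMIs in the IgG library and 423 CPM (391 to 456) from 663 UMIs in the SPP1-nAb library, and after thinning 34.1% and 37.0% of those cells had a UMI, against 0.0570% and 0.0797% of mononuclear phagocyte-like cells. Unthinned, the shares were 38.3% and 46.3%, against 0.150% and 0.222%.

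Mesenchymal-like cells expressed *Gfra1* at 50.2 CPM (46.4 to 54.2) and 47.0 CPM (42.3 to 52.0). By number of molecules they led in the IgG library, with 40.0% of *Gfra1* UMIs against 33.8% for Schwann-like cells, and followed in the SPP1-nAb library, with 27.2% against 48.6%. Those shares changed while both CPM levels stayed within overlapping intervals, and the mesenchymal-like cells numbered 2494 and 1067. The 37 and 27 nerve sheath fibroblast-like cells were the second highest group, at 185 CPM (127 to 260.0) and 180.2 CPM (123 to 254), below the size needed for further comparison.

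**Figure D2:**
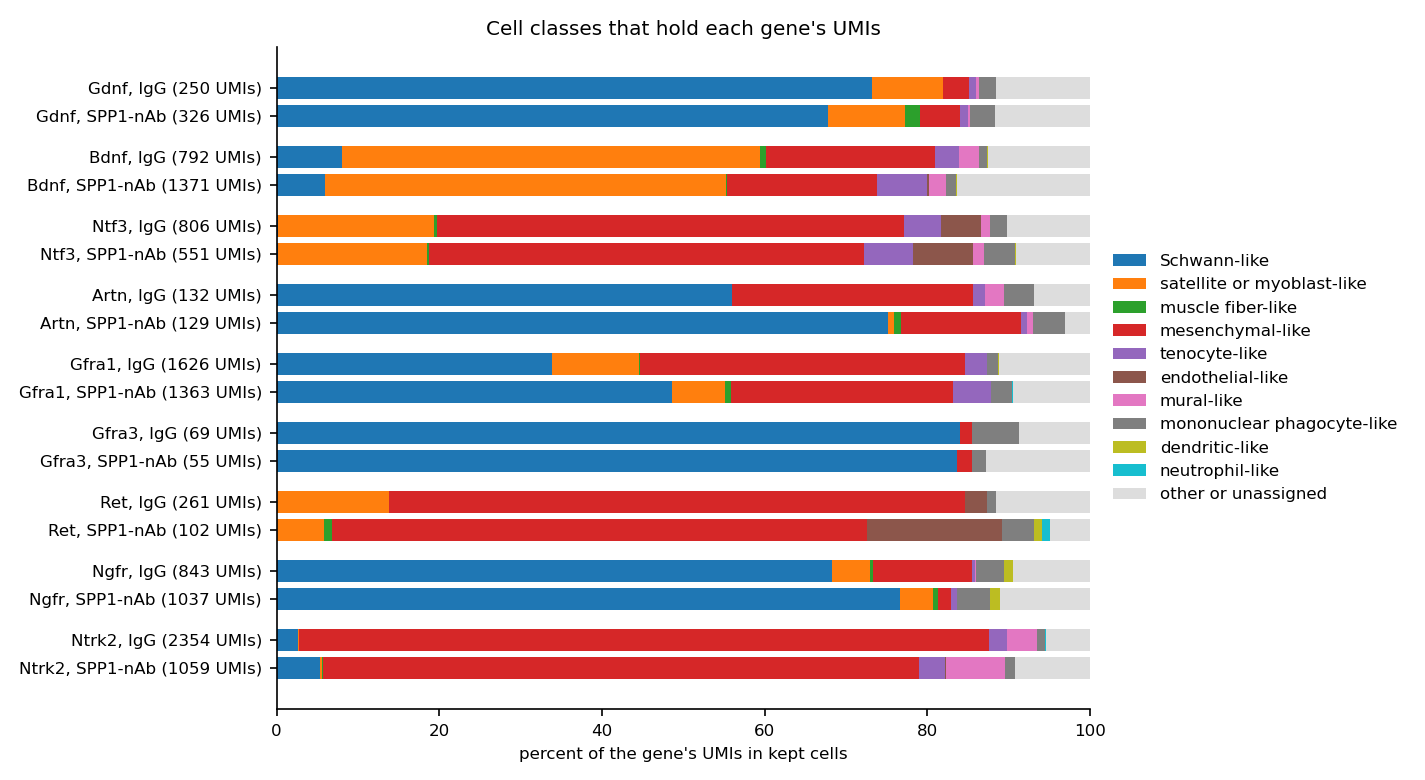
Percent of each gene's UMIs in kept cells that came from each cell class, with 1 bar per library (IgG and SPP1-nAb) for each of the 9 genes. *Gdnf*, *Gfra3* and *Ngfr* came mostly from Schwann-like cells in both libraries, while 84.9% and 73.3% of *Ntrk2* and 70.9% and 65.7% of *Ret* molecules came from mesenchymal-like cells.

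*Gfra3* (ENSMUSG00000024366, chromosome 18, 34822951 to 34853440, - strand), the artemin coreceptor, had the fewest UMIs of the 9 genes. Schwann-like cells held 58 of 69 UMIs at 44.5 CPM (33.8 to 57.5) in the IgG library and 46 of 55 UMIs at 29.3 CPM (21.5 to 39.1) under SPP1-nAb, that is 84.1% and 83.6%. No other class with at least 50 cells had more than 4 UMIs in either library. The molecules sat in 35 and 27 Schwann-like cells, and the thinned share with a UMI was 5.34% (3.20 to 8.31) and 4.50% (2.69 to 7.02), against 7.71% and 5.82% unthinned and 0.00950% and 0.00725% of thinned mononuclear phagocyte-like cells (0.0354% and 0.00693% unthinned).

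*Ret* (ENSMUSG00000030110, chromosome 6, 118128706 to 118174769, - strand) encodes the signaling receptor that GFRα proteins engage, and it was not detected in Schwann-like cells of either library. The count was 0 UMIs in 454 and in 464 cells, where 3 counts would have been 2.30 and 1.91 CPM. After thinning, 0 of 337 and 0 of 400 cells allow a share of cells with a *Ret* UMI of up to 0.890% and 0.750%. The same cells had 550 and 663 UMIs of *Gfra1*, so at this depth the coreceptor was measured in glia without the kinase.

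*Ret* was instead found in mesenchymal-like cells, at 14.3 CPM (12.3 to 16.5) from 185 UMIs in the IgG library and 8.48 CPM (6.57 to 10.8) from 67 UMIs in the SPP1-nAb library. Endothelial-like cells were at 11.3 CPM (4.55 to 23.3) and 26.0 CPM (15.2 to 41.6), with 7 and 17 UMIs, the second of these in 9 cells. The leading class was therefore mesenchymal-like in the IgG library, with overlapping intervals, and endothelial-like in the SPP1-nAb library. Satellite cell or myoblast-like cells were at 8.34 CPM (5.84 to 11.5) and 1.43 CPM (0.523 to 3.10), with 36 and 6 UMIs.

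In mesenchymal-like cells some cells had UMIs of both *Gfra1* and *Ret*. Of 380 cells with a *Gfra1* UMI in the IgG library 35 (9.21%) also had *Ret*, against 5.93% of all mesenchymal-like cells. In the SPP1-nAb library it was 17 of 190 (8.95%), against 5.25%. Cells with more UMIs are more likely to show any pair of genes, and the part of depth in this was not tested.

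The neurotrophin receptors differed sharply in where they were found. *Ngfr* (ENSMUSG00000000120, chromosome 11, 95459638 to 95478561, - strand), which denervated Schwann cells are known to make in quantity, was at 442 CPM (406 to 479) in Schwann-like cells of the IgG library and 507 CPM (473 to 544) in those of the SPP1-nAb library. A *Ngfr* UMI was found in 56.4% and 69.6% of them, and in 53.1% (47.6 to 58.5) and 60.8% (55.8 to 65.6) after thinning. In thinned mononuclear phagocyte-like cells it was 0.123% and 0.0797%, and unthinned 0.248% and 0.249%. Of the 10 classes satellite cell or myoblast-like cells followed at 9.03 and 9.98 CPM, with mesenchymal-like cells at 7.95 CPM in the IgG library and 2.15 CPM in the SPP1-nAb library.

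*Ntrk2* (ENSMUSG00000055254, chromosome 13, 58954176 to 59281784, + strand), the BDNF receptor gene, was highest in mural-like and mesenchymal-like cells among the 10 classes. Mural-like cells were at 234 CPM (188 to 288) from 88 UMIs and 229.7 CPM (181 to 287) from 77 UMIs, and mesenchymal-like cells 154 CPM (147 to 161) from 1998 UMIs and 98.2 CPM (91.5 to 105) from 776 UMIs. Schwann-like cells were at 47.5 CPM (36.4 to 60.9) and 35.7 CPM (27.0 to 46.4). The 37 and 27 nerve sheath fibroblast-like cells, too few to be among the 10 classes, were at 163 CPM (109 to 234) and 163 CPM (109 to 235). Those intervals overlapped the ones of mural-like cells in each library. Satellite cell or myoblast-like cells, the main *Bdnf* source, had 3 *Ntrk2* UMIs in each library. Mural-like cells, highest in *Ntrk2* at the main filter, also had *Bdnf*, in 8 and 11 cells, at levels whose intervals overlapped those of Schwann-like cells. Cells with UMIs of both genes were 4 and 4 Schwann-like, 1 and 3 mural-like and 17 and 24 mesenchymal-like cells (IgG and SPP1-nAb). The last were 23.3% and 22.2% of the 73 and 108 mesenchymal-like cells with *Bdnf*, below the 41.7% and 36.1% of all mesenchymal-like cells with *Ntrk2*. *Ntrk2* has 40 annotated transcripts, some of which lack the kinase domain, and counts per gene do not separate them.

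After thinning, 29.9% (20.0 to 41.4) and 26.6% (16.3 to 39.1) of mural-like cells and 23.9% and 13.5% of mesenchymal-like cells had a *Ntrk2* UMI, against 0.114% and 0.0580% of mononuclear phagocyte-like cells. The unthinned shares were 23.9% and 27.5% in mural-like, 41.7% and 36.1% in mesenchymal-like and 0.204% and 0.0831% in mononuclear phagocyte-like cells.

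Within the Schwann-like cells the genes did not vary together. The cells were divided by whether they had a UMI of *Reln*, which gave 196 and 233 cells with it, at median depths of 2823 and 3194 UMIs, and 258 and 231 cells without it, at 2575 and 3157 UMIs. *Gfra1* was 602 CPM (542 to 666) with *Reln* and 257 CPM (220.2 to 298) without it in the IgG library, and 601 CPM (548 to 658) and 241 CPM (208 to 278) under SPP1-nAb. *Ntrk2* took the opposite order, at 12.8 CPM (5.54 to 25.3) and 79.2 CPM (59.5 to 103), then 13.9 CPM (6.93 to 24.9) and 58.0 CPM (42.3 to 77.6), and so did *Gfra3*, at 20.9 and 66.0 CPM, then 6.31 and 52.9 CPM. *Ngfr* was 461 CPM with and 424 CPM without *Reln* in the IgG library, with overlapping intervals. Under SPP1-nAb it was 595 CPM (542 to 651) with and 418 CPM (373 to 466) without *Reln*.

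The ligands were divided less clearly. *Artn* was 75.4 CPM (55.4 to 100.3) with and 39.6 CPM (26.1 to 57.6) without *Reln* in the IgG library, and 83.4 CPM (64.5 to 106) and 40.0 CPM (27.2 to 56.7) under SPP1-nAb, where the intervals no longer overlapped. *Bdnf* was 69.0 and 30.8 CPM, then 65.7 and 38.7 CPM, with overlap in the SPP1-nAb library alone (49.0 to 86.1 and 26.1 to 55.2). *Gdnf* overlapped in both libraries, at 138 and 142 CPM, then 124 CPM (100.5 to 151) and 159 CPM (132 to 189).

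**Figure D3:**
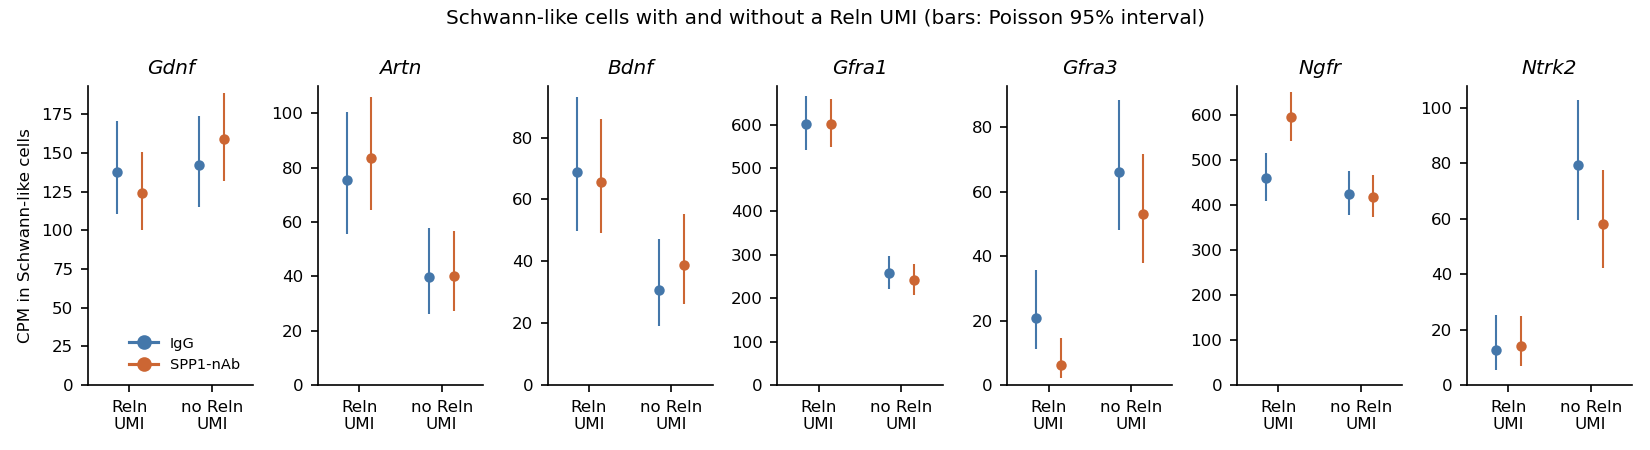
Levels in CPM of the trophic factor and receptor genes in Schwann-like cells with and without a *Reln* UMI, 1 panel per gene, with points for each library and bars for exact 95% Poisson intervals. *Gfra1* is higher with *Reln* (602 and 601 CPM) than without (257 and 241 CPM), *Gfra3* and *Ntrk2* are lower, and *Gdnf* overlaps between both sets.

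Pairs of genes in the same Schwann-like cell were counted next. Of the cells with a *Gfra3* UMI, 1 of 35 and 1 of 27 also had *Artn*, against 13.7% and 16.6% of all Schwann-like cells. *Gdnf* was found in 13 of those 35 (37.1%) and 13 of those 27 (48.1%), against 26.7% and 32.3% of all. *Gdnf* cells had *Gfra1* in 30 of 121 (24.8%) and 57 of 150 (38.0%), below the 38.3% and 46.3% of all Schwann-like cells. They had *Ngfr* in 80 of 121 (66.1%) and 116 of 150 (77.3%), above the 56.4% and 69.6% of all. These are counts of detected molecules, and a cell without a UMI may still express the gene. Deeper cells are more likely to show any pair, and the part of depth in these shares was not tested.

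Clusters of all cells give a finer view, as a description, since the clustering used expression of the same cells. The Schwann cluster with *Tenm3* and *Reln* among its leading genes (295 and 326 cells) had *Artn* at 86.6 and 77.1 CPM and *Ntrk2* at 5.17 and 9.01 CPM. The second Schwann cluster (239 and 224 cells) had *Artn* at 22.7 and 31.7 CPM and *Ntrk2* at 89.3 and 64.7 CPM.

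Among the mural clusters, *Ntrk2* belonged to one of 2. The cluster led by *Myh11*, *Tagln* and *Acta2*, genes of the smooth muscle contractile apparatus, had 383 CPM (327 to 445) and 312 CPM (257 to 374). The cluster led by *Rgs5*, *Abcc9* and *Kcnj8*, genes of pericytes, had 13.2 CPM (2.71 to 38.5) and 46.5 CPM (18.7 to 95.9). *Ntf3* in the *Myh11* cluster was 67.5 CPM (45.6 to 96.4) and 37.9 CPM (20.7 to 63.7).

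Satellite cell or myoblast-like clusters differed in *Bdnf*. The cluster led by *Pax7* and *Myf5* (1235 and 1225 cells) had *Bdnf* at 132 and 195 CPM, whereas the one led by *Nppc*, *Gal* and *Calcr* had 12.5 CPM (7.94 to 18.8) in its 934 cells of the IgG library. That second cluster had only 41 cells in the SPP1-nAb library. It carried *Gfra1* at 86.5 CPM (73.6 to 101) and *Ret* at 19.6 CPM (13.7 to 27.1) in the IgG library, above the *Pax7* and *Myf5* cluster at 17.6 and 3.98 CPM. In the cluster led by *Myog*, a regulator of myoblast differentiation, *Gdnf* had 0 UMIs in 127 cells of the IgG library and 16 UMIs at 9.30 CPM (5.31 to 15.1) in 128 cells of the SPP1-nAb library.

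Mesenchymal clusters divided the receptors and *Bdnf*. The cluster led by *Inmt* and *C7* (1154 and 342 cells) had *Ntrk2* at 231 CPM (218 to 244) and 202 CPM (184 to 222), and little *Bdnf*, 0.909 and 5.35 CPM. The cluster led by *Postn* and *Cthrc1* (466 and 577 cells) had *Ntrk2* at 55.5 and 47.2 CPM and *Bdnf* at 33.4 and 39.6 CPM. A cluster led by *Smoc2* and *Enpp2*, with 244 cells in the IgG library and 4 in the SPP1-nAb library, had *Ret* at 55.5 CPM (42.9 to 70.8), *Gfra1* at 146 CPM (125 to 169.7) and *Ngfr* at 20.5 CPM (13.1 to 30.5). The nerve sheath fibroblast cluster, led by *Tenm2* and *Gpc3* (213 and 41 cells), had *Gfra1* at 272 CPM (238 to 308) and 199 CPM (148 to 264). Its *Ntrk2* was at 196 and 204 CPM. Its *Ngfr* was at 67.9 CPM (51.7 to 87.6) from 59 UMIs and 24.4 CPM (8.96 to 53.2) from 6 UMIs. This cluster was larger than the nerve sheath fibroblast-like class of 37 and 27 cells, so it held cells not assigned to that class. The class itself had *Ngfr* at 11.2 CPM (1.36 to 40.5) from 2 UMIs and 22.5 CPM (6.14 to 57.7) from 4 UMIs. In the IgG library that interval lay below the one of the cluster.

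Division of the mesenchymal-like cells by adventitial markers (*Pi16*, *Dpp4* and others; 522 and 122 cells) and interstitial markers (*Smoc2*, *Cxcl14* and others; 1451 and 707 cells) left 521 and 238 cells in neither set. Adventitial cells had 1 and 0 *Bdnf* UMIs, interstitial cells 15.6 and 35.1 CPM and cells of neither set 17.5 CPM (12.5 to 24.0) and 42.5 CPM (32.0 to 55.3). *Gfra1* was 15.7 and 4.05 CPM in adventitial and 68.9 and 54.7 CPM in interstitial cells, and *Ntf3* 12.9 and 19.2 against 46.3 and 44.2 CPM. *Ret* was 14.3 CPM in adventitial and 16.4 CPM in interstitial cells of the IgG library, with overlapping intervals, and 19.2 CPM (11.6 to 30.0) against 7.66 CPM (5.54 to 10.3) under SPP1-nAb.

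**Figure D4:**
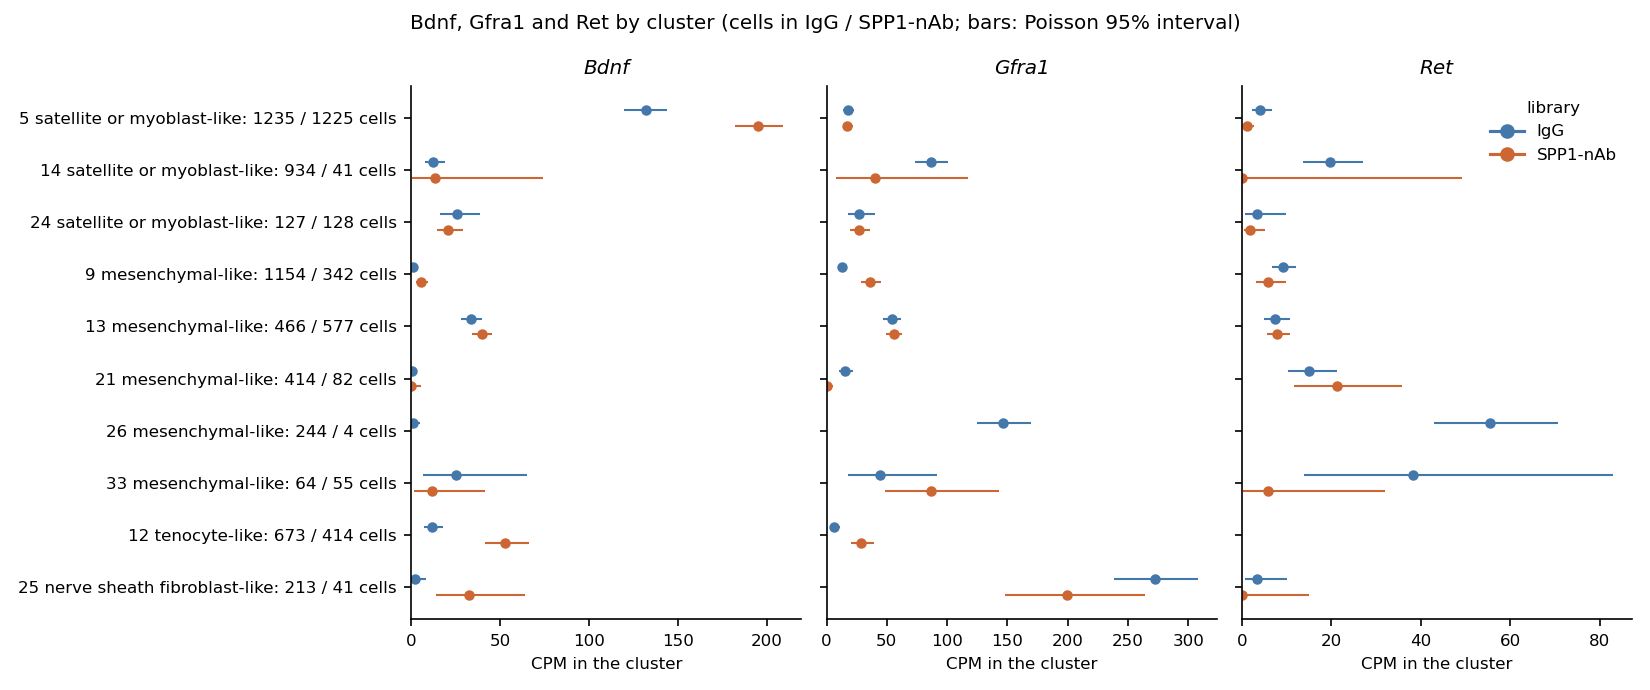
Levels of *Bdnf*, *Gfra1* and *Ret* in CPM (linear axes from 0) in each satellite cell or myoblast, mesenchymal, tenocyte and nerve sheath fibroblast cluster, with 1 point per library, bars for exact 95% Poisson intervals and the number of cells beside each cluster's number; a library with under 20 cells in a cluster is not drawn, nor is *Ret* in the tenocyte cluster, which had 0 UMIs. *Bdnf* is high in cluster 5, led by *Pax7* (132 and 195 CPM), and low in cluster 14, which holds *Calcr* among its leading genes, while *Ret* is highest in the IgG cells of the *Smoc2* cluster 26 (55.5 CPM).

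The libraries were then compared class by class, as the log2 ratio of CPM in the SPP1-nAb library over the IgG library, for genes with at least 20 UMIs over both. In Schwann-like cells 0 of 7 genes differed by 2-fold or more, where 4.17% of all genes with at least 20 UMIs did. *Gdnf* had a ratio of 0.01 (-0.28 to 0.30), *Gfra1* of 0.00 (-0.16 to 0.17), *Bdnf* of 0.09 (-0.40 to 0.59) and *Artn* of 0.13 (-0.33 to 0.58). These intervals exclude a 2-fold difference between these 2 libraries, as far as counting goes. *Gfra3* was lower in the SPP1-nAb library, at -0.60 (-1.19 to -0.02), and *Ngfr* slightly higher, at 0.20 (0.04 to 0.36). The intervals of these 2 ratios did not include 0, and the share of all genes with such an interval was not counted. *Ntrk2* was at -0.41 (-0.96 to 0.13). Within the Schwann cluster with *Tenm3* and *Reln*, *Ngfr* was at 0.25 (0.07 to 0.44) and *Gfra1* at -0.18 (-0.35 to 0.00). Within the second Schwann cluster *Ngfr* was at 0.06 (-0.19 to 0.31) and *Gfra1* at 0.37 (0.01 to 0.74).

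In mesenchymal-like cells 3 of 8 genes differed by 2-fold or more, where 7.93% of all genes did. *Bdnf* was higher in the SPP1-nAb library, from 164 UMIs at 12.7 CPM to 252 UMIs at 31.9 CPM, a log2 ratio of 1.33 (1.04 to 1.63). *Gdnf* was also higher, from 8 to 16 UMIs, at 1.71 (0.41 to 3.15), in 6 and 14 cells. Its levels there were 0.617 and 2.03 CPM, where the free RNA estimate alone would give 0.595 and 1.03 CPM, and the ratio was 5.48 after that estimate was subtracted. *Ngfr* was lower, from 103 to 17 UMIs, at -1.88 (-2.72 to -1.14), and its 2.15 CPM in the SPP1-nAb library was under the 3.28 CPM of the free RNA estimate. *Ret* at -0.75 (-1.18 to -0.34) and *Ntrk2* at -0.65 (-0.77 to -0.53) were lower with intervals below 0, and *Artn* (-0.32), *Gfra1* (-0.10) and *Ntf3* (0.06) had intervals that included 0.

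The makeup of the mesenchymal-like class also differed between the libraries, and its part in these ratios was not tested. The *Inmt* cluster held 45.5% of the class in the IgG library and 30.6% in the SPP1-nAb library, while the *Postn* cluster held 16.4% and 49.2%. In the SPP1-nAb library 44 of the 1067 mesenchymal-like cells (4.12%) lay in the *Pax7* and *Myf5* cluster of muscle progenitors, where *Bdnf* was at 195 CPM. In the IgG library only the clusters that held most of the class were listed, and that cluster was not among them. Its share there could be as high as 9.78%, the smallest share listed. The part of such cells in the *Bdnf* level and ratio of the class was not tested. Within the *Postn* cluster *Bdnf* was at 0.25 (-0.08 to 0.58), *Ret* at 0.06 (-0.67 to 0.82) and *Ntrk2* at -0.23 (-0.51 to 0.04), none of them with an interval apart from 0. Within the *Inmt* cluster *Bdnf* was at 2.56 (0.95 to 4.41), from 5 and 12 UMIs, *Ntrk2* at -0.19 (-0.35 to -0.03) and *Gfra1* at 1.46 (0.99 to 1.94). Without the 4 clusters of all cells whose numbers differed over 5-fold between the libraries, a setting chosen after seeing the data, *Ngfr* in mesenchymal-like cells was at -0.09 (-1.16 to 0.95), *Bdnf* at 0.95 (0.66 to 1.25) and *Ret* at -0.35 (-0.88 to 0.16).

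**Figure D5:**
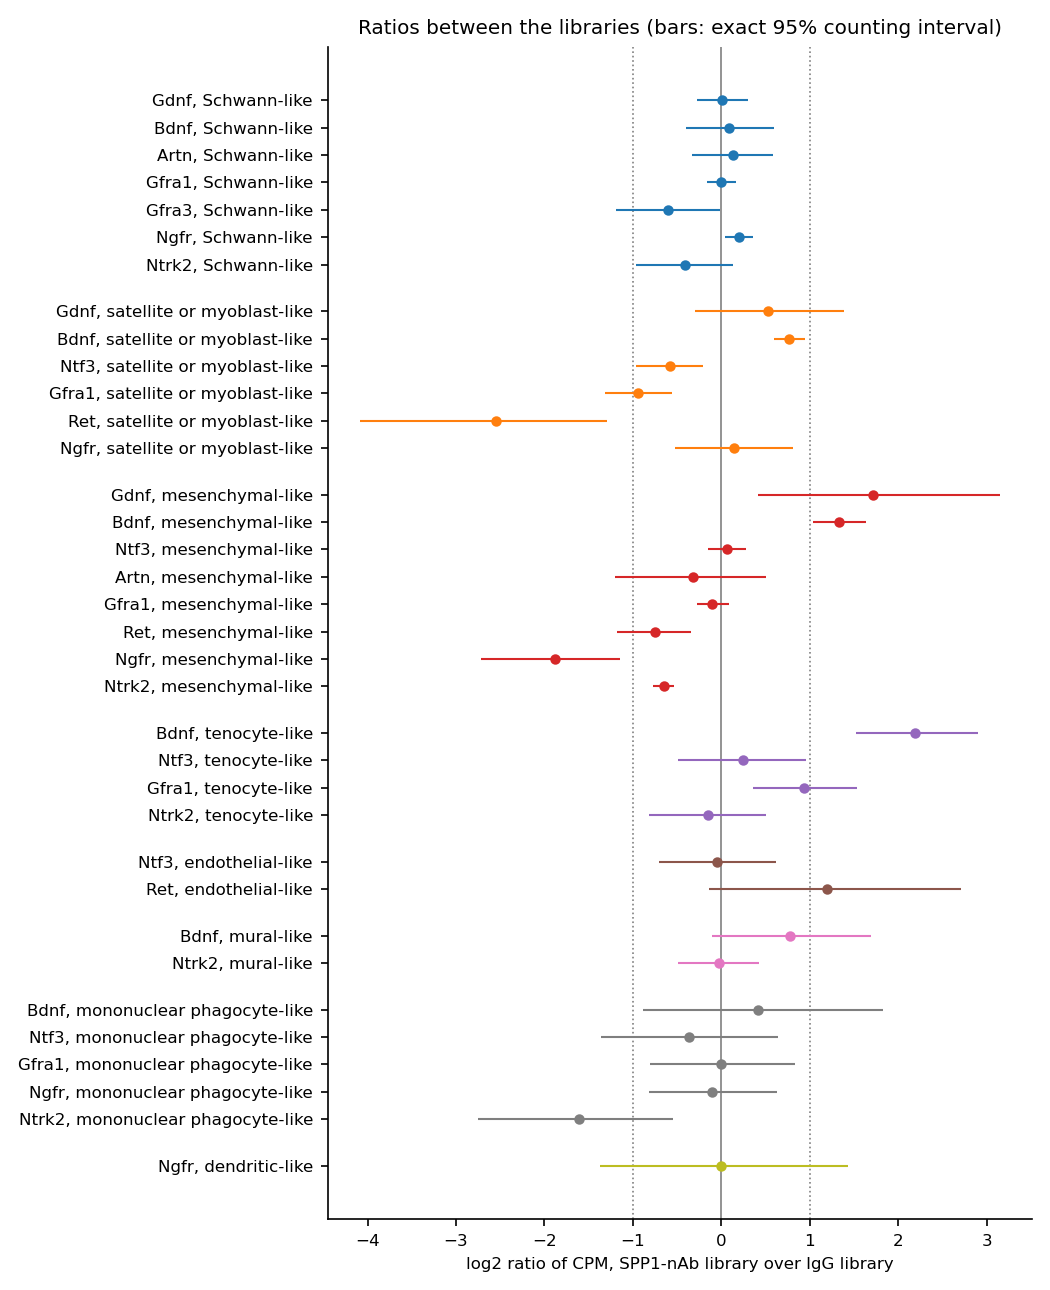
Log2 ratio of CPM in the SPP1-nAb library over the IgG library for each of the 9 genes in each class where it had at least 20 UMIs over both libraries, with exact 95% intervals and dotted lines at 2-fold. The ratios in Schwann-like cells lie between -0.60 and 0.20, while *Bdnf* is higher in mesenchymal-like (1.33), tenocyte-like (2.19) and satellite cell or myoblast-like cells (0.77).

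In satellite cell or myoblast-like cells 1 of 6 genes, *Ret*, differed by 2-fold or more, where 5.43% of all genes did. Its ratio was -2.55 (-4.09 to -1.29). *Bdnf* was at 0.77 (0.59 to 0.95), *Gfra1* at -0.94 (-1.32 to -0.56) and *Ntf3* at -0.58 (-0.96 to -0.21), while *Gdnf* (0.53) and *Ngfr* (0.14) had intervals that included 0. The *Calcr* cluster, low in *Bdnf* and high in *Gfra1* and *Ret*, held 37.8% of this class in the IgG library and 2.15% in the SPP1-nAb library. Within the *Pax7* and *Myf5* cluster *Bdnf* was at 0.57 (0.40 to 0.73), *Gfra1* at -0.03 (-0.54 to 0.48) and *Ret*, with 14 and 5 UMIs, at -1.74 (-3.56 to -0.18). A shallow unnamed cluster led by *Hs6st3* and *Tenm4* had 201 and 329 cells and held 2.36% and 4.19% of the class. There *Bdnf* was at 1.09 (0.38 to 1.86), *Gfra1* at -2.48 (-3.84 to -1.29) and *Ret*, with 10 and 4 UMIs, at -2.16 (-4.29 to -0.37). Both of these cluster ratios of *Ret* rest on fewer UMIs than the 20 required for the class ratios. In the class without the clusters of unequal size *Bdnf* was at 0.37 (0.19 to 0.56), *Gfra1* at -0.15 (-0.62 to 0.32) and *Ret* at -1.41 (-3.11 to 0.12). The part of cluster makeup in these ratios was not tested with replicates.

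In tenocyte-like cells 1 of 4 genes, *Bdnf*, differed by 2-fold or more, where 5.07% of all genes did. Its ratio was 2.19 (1.52 to 2.90), also in the tenocyte cluster alone, at 2.19 (1.47 to 2.99). *Gfra1* was at 0.94 (0.36 to 1.53) in the class, from 43 and 64 UMIs, and 2.17 (1.18 to 3.28) in the cluster, from 11 and 40 UMIs. The 10 cells of the class richest in *Gfra1* carried 53.5% and 62.5% of its UMIs. The *Postn* cluster, with *Gfra1* at 53.9 and 55.8 CPM, held 8.37% and 12.0% of the tenocyte-like class, and the part of those cells in the class ratio was not tested. *Ntf3* (0.24) and *Ntrk2* (-0.15) had intervals that included 0. Only 34 tenocyte-like cells of the SPP1-nAb library had a *Bdnf* UMI, 11 UMIs in the richest.

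Vascular and phagocyte classes gave few molecules. In endothelial-like cells 1 of 2 genes passed 2-fold, where 5.41% of all genes did: *Ret* at 1.20 (-0.14 to 2.71), with *Ntf3* at -0.05. In mural-like cells 0 of 2 did, where 7.49% of all genes did, with *Bdnf* at 0.78 (-0.11 to 1.69) and *Ntrk2* at -0.03. In mononuclear phagocyte-like cells 1 of 5 did, where 6.58% of all genes did. That was *Ntrk2*, from 23 UMIs in 11299 cells to 12 UMIs in 14436 cells, a log2 ratio of -1.61, a level at which free RNA cannot be told apart from expression.

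The level over all kept cells can differ from that in any class. *Ntrk2* over all kept cells was 28.9 CPM in the IgG library and 9.92 CPM in the SPP1-nAb library. *Ret* was 3.21 and 0.955 CPM, and *Ntf3* 9.90 and 5.16 CPM. For *Ntf3* the mesenchymal-like level was nearly equal in the libraries, 35.7 and 37.4 CPM, while mesenchymal-like cells were 11.8% and 4.79% of kept cells. *Gdnf* over all kept cells was 3.07 and 3.05 CPM.

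The other genes of these pathways were taken from lists of ligands, receptors, processing proteases, adaptors and feedback genes, 36 genes beside the 9, of which 32 had at least 50 UMIs over both libraries. Of those 32, 26 had the same leading class in both libraries. A leading class is the one with the highest level, and its lead over the next class was not tested. Some leads rested on few UMIs, such as 2 and 1 of *Nrtn* in mural-like cells and 9 and 7 of *Dok5* in Schwann-like cells. Among ligands *Nrtn*, neurturin, had 72 UMIs in all and at most 5.32 CPM in any of the 10 classes. *Pspn*, *Ntf5* and *Mmp7* had 7, 5 and 1 UMIs and were not described further.

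Among receptors *Gfra2*, the neurturin coreceptor, was led by Schwann-like cells at 37.6 and 24.2 CPM, and *Gfra4* by tenocyte-like cells at 16.3 and 10.7 CPM. *Ncam1*, an adhesion molecule that can bind GDNF with GFRα1, was led by satellite cell or myoblast-like cells at 514 and 414 CPM. *Ntrk3*, which encodes TrkC, and *Sort1*, which encodes the proneurotrophin receptor sortilin, were both led by mural-like cells, *Ntrk3* at 37.2 and 41.8 CPM and *Sort1* at 136 and 104 CPM. The main receptor of neurotrophin-3 therefore had its highest level in vessel wall cells.

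Of the genes that process proneurotrophins, *Furin* was led by mononuclear phagocyte-like cells at 232 and 176 CPM. *Pcsk6*, *Mmp3* and *Plat* were led by mesenchymal-like cells, at 128 and 62.2 CPM, 191 and 528 CPM, and 159 and 169.9 CPM. *Pcsk5* was at 186 CPM in mesenchymal-like cells of the IgG library and led by tenocyte-like cells at 299.6 CPM in the SPP1-nAb library. Between the libraries 1 of 5 of these genes in mesenchymal-like cells was 2-fold or more higher, *Mmp3* at 1.46 (1.39 to 1.54), and 1 lower, *Pcsk6* at -1.04 (-1.19 to -0.89), where 7.93% of all genes differed by 2-fold or more. *Pcsk6* was also among the adventitial markers used to divide this class. Adventitial cells were 20.9% of the class in the IgG library and 11.4% in the SPP1-nAb library, and the part of this in the *Pcsk6* ratio was not tested.

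Adaptors that bind activated RET or Trk receptors had mixed sources. *Dok4* was led by Schwann-like cells at 179 and 203 CPM, as was *Frs2* at 46.0 and 54.2 CPM and *Dok5* at 6.90 and 4.47 CPM. *Dok6* led in Schwann-like cells of the IgG library at 27.6 CPM and in mesenchymal-like cells of the SPP1-nAb library at 17.3 CPM. *Shc1* was led by mesenchymal-like cells at 51.2 and 49.0 CPM and *Sh2b1* by satellite cell or myoblast-like cells at 17.8 and 18.3 CPM. *Grb10* stood at 283 CPM in satellite cell or myoblast-like cells of the IgG library and at 280.2 CPM in mesenchymal-like cells of the SPP1-nAb library, and *Kidins220* at 85.1 CPM in muscle fiber-like and 67.3 CPM in tenocyte-like cells.

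Feedback genes of the MAPK pathway, which many receptors induce, did not differ alike between the libraries. *Spry2* was at 313 CPM (283 to 345) and 188 CPM (167 to 211) in Schwann-like cells, and at 313 and 138 CPM in mesenchymal-like cells. Its log2 ratio was -0.73 (-0.95 to -0.51) in the former class, -1.18 in mesenchymal-like, -1.08 in satellite cell or myoblast-like, -1.72 in endothelial-like, -1.18 in mural-like, -1.01 in mononuclear phagocyte-like, -0.50 in tenocyte-like, -0.64 (-1.87 to 0.70) in neutrophil-like and -0.07 (-0.80 to 0.67) in muscle fiber-like cells. *Spry1* was led by satellite cell or myoblast-like cells at 213 and 105 CPM. *Dusp6* was led by endothelial-like cells at 116 and 127 CPM and had a ratio of 0.00 in Schwann-like and -1.21 in mononuclear phagocyte-like cells. *Spry4* was led by mural-like cells at 58.5 and 83.5 CPM and *Etv4* by tenocyte-like cells at 13.2 and 19.2 CPM, and *Etv5* was at 26.1 CPM in muscle fiber-like cells of the IgG library and 20.0 CPM in mononuclear phagocyte-like cells of the SPP1-nAb library. Of the list of 14 adaptors and feedback genes, 0 were 2-fold or more higher and 1 lower of 11 measured in Schwann-like cells (4.17% of all genes either way), with a median ratio of -0.09, and 1 higher and 1 lower of 14 in mesenchymal-like cells (7.93% of all genes), also with a median of -0.09. The gene lower in Schwann-like cells was *Dok6*, at -1.04 (-1.89 to -0.23), and in mesenchymal-like cells *Dok6* was the higher one, at 1.37 (0.97 to 1.77), and *Spry2* the lower. In mononuclear phagocyte-like cells 0 were higher and 3 lower of 11 (6.58% of all genes). The counts were 0 and 2 of 10 in satellite cell or myoblast-like (5.43%), 0 and 2 of 9 in endothelial-like (5.41%), 0 and 1 of 7 in mural-like (7.49%) and 0 and 1 of 11 in tenocyte-like cells (5.07%). They were 1 and 0 of 5 in neutrophil-like (13.1%), and 0 either way of 3 in dendritic-like (4.79%) and of 5 in muscle fiber-like cells (15.1%).

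Other neurotrophic factors included *Cntf*, a factor known from Schwann cells, at 97.4 CPM (81.2 to 116) and 67.0 CPM (54.8 to 81.1) in Schwann-like cells, a ratio of -0.54 (-0.93 to -0.15). No other class of the 10 was above 3.39 CPM for it. *Cntfr*, its receptor, was led by tenocyte-like cells at 55.9 and 21.5 CPM, a ratio of -1.38 (-1.94 to -0.85). *Ptn*, pleiotrophin, was led by Schwann-like cells at 1118 and 974 CPM, *Mdk*, midkine, by mesenchymal-like cells at 116 and 131 CPM, and *Manf* by tenocyte-like cells at 245 and 192 CPM. *Cdnf* had 3 and 2 UMIs in its leading classes, muscle fiber-like at 5.21 CPM and tenocyte-like at 1.13 CPM.

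Last, the genes whose levels followed each gene most closely over the 10 classes of both libraries were found by Pearson's r on log2(CPM + 10), over 20 points and 15126 genes. The points share libraries, and for genes led by 1 class r is set mostly by that class, so the values are descriptions. *Gdnf* was followed by *Fam178b* (0.987), *Nrxn3* (0.986) and *Gm19744* (0.985), and *Ngfr* by *B3galt2* (0.984), *Gm19744* (0.983) and *Epha5* (0.981). *Artn* was followed by *Kcna2* (0.990), *Synpr* (0.987) and *Mmp17* (0.986), and *Gfra3* by *Igsf11* (1.000), *Ugt8a* (0.999) and *Gpr37l1* (0.998), the last of which was used to assign Schwann-like cells. For *Gfra1* they were *Tenm3* (0.971), *Matn2* (0.964) and *Zfp607b* (0.948).

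Outside the glial genes *Bdnf* was followed by *Nrbp2* (0.951), *Hr* (0.926) and *Arhgap42* (0.924), and *Ntf3* by *Ebf3* (0.971), *Ptprg* (0.960) and *Fzd4* (0.944). *Ret* was followed by *Tek* (0.943), an endothelial receptor gene, *Enpp3* (0.934) and *Kcnc2* (0.920). *Ntrk2* was followed by *Pde1a* (0.959), *Mrgprf* (0.955) and *Serpine2* (0.951).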

How the data were processed

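Both libraries were droplet scRNA-Seq of hind limb muscle. The deposited matrices hold UMI counts per gene and barcode, which the authors made with Cell Ranger; the submitters' processing notes name version 8.0.0 and GRCm39, the matrix header names version 9.0.1, and the methods name both GRCm39 and GRCm38. The methods describe a later removal of ambient RNA, whereas the deposited counts are whole numbers, so free RNA is still in them.

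Kept barcodes had over 200 genes and a mitochondrial share under 10% of their UMIs, and the 10% with the highest simulated-doublet score were removed per library. A cell was given a class if at least 3 markers of that class were detected. The highest such share of markers in its lineage also had to be at least 1.2 times the next lineage's, a ratio set after seeing the data. The mesenchymal and mononuclear phagocyte classes were given only where no other class of the lineage had 3 markers. UMIs were summed per class and library. Exact Poisson (levels), Clopper-Pearson (shares) and conditional binomial (ratios) intervals were computed at 95%, and a count of 0 was bounded at 3 counts. With 1 library per treatment no test was made, and nothing in the labels says how many animals each pool held. Cells were thinned to 2000 UMIs for shares. Clusters came from Leiden on 2000 variable genes and 30 components, and a shallow cluster with none of its markers leading stayed unnamed.

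The 9 genes, the pathway lists and the markers were chosen with earlier results of these data known. Named were the 9 genes, the pathway genes with at least 50 UMIs over both libraries and the 3 genes most like each member. Some of these genes are not reported here. Promoter windows came from a RefSeq table of GRCm38.p6, and gene positions from a GRCm39 annotation. Counting and interval code was tested on simulated data. Tools were Python 3.11.15, NumPy 2.4.6, SciPy 1.17.1, pandas 2.3.3, scikit-learn 1.9.0, igraph 0.11.9, leidenalg 0.10.2 and matplotlib 3.10.9.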

Additional observations from a re-analysis of the deposited data

Results flagged for a closer look

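*Gfra1* differed in opposite directions between the libraries in 2 classes. The log2 ratio of the SPP1-nAb over the IgG library was 0.94 in tenocyte-like cells and -0.94 in satellite cell or myoblast-like cells, with counting intervals on opposite sides of 0. With 1 library per treatment the difference was not tested. The tenocyte-like ratio came from 43 and 64 UMIs, and in the tenocyte cluster alone it was 2.17, from 11 and 40 UMIs. In satellite cell or myoblast-like cells the ratio was -0.15 without the clusters of unequal size, a setting chosen after seeing the data, -0.03 in the *Pax7* and *Myf5* cluster and -2.48 in a shallow unnamed cluster led by *Hs6st3*.

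*Ngfr* was at 0.20 in Schwann-like cells and at -1.88 in mesenchymal-like cells, with counting intervals on opposite sides of 0, and that difference was not tested either. In mesenchymal-like cells 103 UMIs of the IgG library stood against 17 of the SPP1-nAb library, and the ratio was -0.09 without the clusters of unequal size.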

How the results depend on the processing

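No paired analysis was possible because each group has 1 library and no test was made. Of 162 levels, 162 shares and 179 ratios recomputed under the alternatives, 12, 22 and 13 moved beyond their counting interval. No recomputed ratio whose interval excluded 0 changed sign, whereas ratios near 0 did, from -0.53 to 0.47 for *Ntrk2* in mural-like and -0.25 to 0.45 for *Ntf3* in endothelial-like cells. Ratios ranged from -0.10 to 0.09 for *Gdnf* and from -0.93 to -0.54 for *Gfra3* in Schwann-like cells, and from 1.89 to 2.48 for *Bdnf* in tenocyte-like cells. Depth limits *Gfra3*, at 69 and 55 UMIs.

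Thinned to 1000 UMIs, shares with a UMI (IgG, then SPP1-nAb) were 12.5% and 12.7% for *Gdnf*, 6.24% and 6.11% for *Artn*, 19.9% and 24.5% for *Gfra1* and 30.0% and 40.8% for *Ngfr* in Schwann-like cells, 6.50% and 11.2% for *Bdnf* in satellite cell or myoblast-like cells and 12.0% and 7.14% for *Ntrk2* in mural-like cells. They were 1.97% for *Gfra3* (SPP1-nAb), 7.78% for *Ntf3* in endothelial-like cells (IgG) and 1.58% for *Ret* in mesenchymal-like cells (IgG). Thinning changes both the UMIs per cell and the cells left in.

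With at least 100 UMIs per gene, which tests fewer genes, the number past 2-fold was 25 in Schwann-like (401 at 20 UMIs), 386 in mesenchymal-like (1116), 75 in tenocyte-like (514), 171 in satellite cell or myoblast-like (621), 22 in endothelial-like (396), 20 in mural-like (394) and 362 in mononuclear phagocyte-like cells (1024).

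For *Ntrk2* in mural-like cells, under 5% mitochondrial UMIs gave 136 and 94.7 CPM, shares of 19.5% and 13.9% and a ratio of -0.53, and 4 markers gave 157 CPM (IgG), shares of 16.7% and 14.6% and a ratio of 0.47. The levels of 136 and 94.7 CPM were below the 154 and 98.2 CPM of mesenchymal-like cells at the main filter. For *Bdnf* in satellite cell or myoblast-like cells, levels were 178 CPM with 20% doublets removed (SPP1-nAb), 109 CPM and a share of 13.8% with 4 markers (IgG), 81.6 and 143 CPM from clusters, and the ratio of cell means was 0.95. Cell means also gave -0.17 for *Ntf3* and -1.36 for *Gfra1* there, and no doublet removal gave -0.56 for *Gfra1*. Clusters gave 2.17 for *Gfra1* in tenocyte-like cells, and free RNA subtraction 5.48 for *Gdnf* in mesenchymal-like cells; it left no *Ngfr* there in the SPP1-nAb library and so no ratio.

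Alternatives chosen after seeing the data were a marker share 2 times the next lineage's, which gave 80.5 and 147 CPM for *Bdnf* in satellite cell or myoblast-like cells and 21.1 CPM for *Gfra3* (SPP1-nAb), and leaving out clusters over 5-fold apart in cells. The latter gave *Bdnf* in satellite cell or myoblast-like cells of the IgG library 125 CPM and a share of 15.5%, *Ret* in mesenchymal-like cells of that library 9.48 CPM and 1.62%, and ratios of 0.37 (*Bdnf*) and -0.15 (*Gfra1*) in satellite cell or myoblast-like cells and 0.95 (*Bdnf*), -0.09 (*Ngfr*) and -0.78 (*Ntrk2*) in mesenchymal-like cells. Apart from thinning and the 100-UMI minimum, the cause was not tested.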
